A study of Mus musculus with 3 samples.

Results

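Matricellular proteins are secreted into the extracellular matrix but, unlike collagen, carry little load: they bind collagen, growth factors and cell surface receptors and change how cells respond to the matrix. Most are scarce in the resting adult heart and are made by activated fibroblasts during repair and fibrosis, and Postn is widely used as a marker of that state. Fibronectin is the adhesive glycoprotein on which collagen fibrils and several of these proteins are laid down; fibroblasts make the tissue form and the liver makes the form that circulates in plasma. The 10 genes described here are those for periostin (Postn), thrombospondins (Thbs1, Thbs2, Thbs4), tenascin C (Tnc), osteonectin (Sparc), 2 CCN proteins (Ccn1, formerly Cyr61, and Ccn2, formerly Ctgf), cartilage intermediate layer protein (Cilp) and fibronectin (Fn1). They were chosen by gene symbol from 23740 named genes, and each was measured by 1 probe set named with its Entrez gene number (Postn 50706_at, Thbs1 21825_at, Thbs2 21826_at, Thbs4 21828_at, Tnc 21923_at, Sparc 20692_at, Ccn1 16007_at, Ccn2 14219_at, Cilp 214425_at and Fn1 14268_at).

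RNA came from the heart left ventricle of male C57BL/6N mice, 8 to 12 weeks old and harvested at 14 days, and there were 3 arrays with 1 array per group. Mice of the group labelled Control had an osmotic pump filled with vehicle (ammonium bicarbonate) and were injected with saline. Those of the group labelled Iso had the same vehicle pump and were given isoproterenol, a beta-adrenergic agonist that injures the heart, intraperitoneally over 11 days at a daily 50 mg/kg. In the group labelled Iso+Insl6 the subcutaneous pump released INSL6, a peptide of the relaxin family, at a daily 50 to 70 nmol/kg beside that isoproterenol. Each array held 3 pooled RNA samples, so there is no spread between animals, no test and no p-value, and every difference is between single pools. In whole tissue, more cells of a type and more RNA per cell cannot be told apart.

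Values are log2 RMA values, so a difference of 1 is a doubling, and levels of different probe sets are not compared. All arrays had a median of 4.16, taken as background. A gene was counted as differing when it was at or above background on the higher array and differed at least 1.5-fold (log2 0.585). Heart muscle markers fitted the labelled tissue: all 10 cardiomyocyte genes were above background on every array, with Myh6 at 11.91 to 11.93. Of genes above background on any array, 42.7% were listed at the same value on all 3, so an identical value means only that no difference was listed. The Iso+Insl6 array stood apart in genes of liver: all 15 liver markers measured were at least 1.5-fold higher there than on Iso, among them albumin (Alb) at 11.12 against 8.97.

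For the members at the ends of the range, the 250 bases before the annotated start are shown (RefSeq, GRCm38.p6, 5′ to 3′ in the direction of the gene). Postn and Cilp had the largest differences between arrays, and Ccn1 had none. Tnc, below background on every array, and Ccn2, which has no window, had none either. RefSeq's table held windows for 7 of the 10 members. RefSeq lists a pair of starts for Postn. The upstream window, at chr3:54359017-54359266, held no match to the motifs below and is not printed. The window of Postn shown here is the downstream one, at chr3:54360857-54361106 on the plus strand, that of Cilp is at chr9:65264930-65265179 on the plus strand and that of Ccn1 at chr3:145649986-145650235 on the minus strand. Capitals mark matches on either strand to TATAAA, to the TEAD motif GGAATG, to the AP-1 motifs TGACTCA and TGAGTCA, to the SMAD motif CAGACA, to the E-box CACGTG, to the GC box GGGCGG and to the CArG box.
Postn: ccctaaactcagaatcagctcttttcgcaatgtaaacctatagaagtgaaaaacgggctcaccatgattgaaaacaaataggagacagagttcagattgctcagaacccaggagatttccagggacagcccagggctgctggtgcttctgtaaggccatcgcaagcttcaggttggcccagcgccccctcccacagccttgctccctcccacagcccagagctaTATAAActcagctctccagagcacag
Cilp: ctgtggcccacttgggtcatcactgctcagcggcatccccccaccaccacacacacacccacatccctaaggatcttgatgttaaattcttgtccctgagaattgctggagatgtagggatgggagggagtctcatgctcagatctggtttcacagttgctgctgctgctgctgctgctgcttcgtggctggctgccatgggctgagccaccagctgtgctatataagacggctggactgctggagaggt
Ccn1: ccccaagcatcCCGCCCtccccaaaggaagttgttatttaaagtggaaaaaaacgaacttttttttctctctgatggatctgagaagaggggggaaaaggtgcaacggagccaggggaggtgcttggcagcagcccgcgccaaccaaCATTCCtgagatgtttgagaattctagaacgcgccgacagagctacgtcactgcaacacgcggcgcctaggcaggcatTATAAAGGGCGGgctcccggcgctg
The Postn window held only TATAAA, at -26 to -21 from the start, and the Ccn1 window held it at -25 to -20. Over 32851 windows of this length, 12.4% held TATAAA at any position on either strand. Close before the start and in the direction of the gene, it was in 332 of 16560 plus strand windows and 323 of 16291 minus strand windows. Ccn1, a target of the TEAD partner YAP, also had GGAATG on the opposite strand at -103 to -98, a motif found in 12.6% of windows, and GC boxes at -239 to -234 and -19 to -14, which 32.7% held. The last of these GC boxes directly follows the TATAAA, so they appear as 1 run of capitals. None of these exact motifs was in the Cilp window. It holds tatataag near its end, which a search for exactly TATAAA does not mark, so it may still have a TATA-like element. The AP-1 (4.46% of windows), SMAD (17.1%), E-box (6.02%) and CArG (1.47%) motifs were in none of the 3 windows. Among member windows not printed, those of Thbs2, Thbs4 and Sparc and the downstream window of Tnc held the SMAD motif. These matches describe the letters alone.

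The first comparison of the design, Iso against Control, asks how isoproterenol alters the normal ventricle. Postn (0.42) and, by listed values, Cilp (0.45, from a Control value below background) were the members furthest above Control on the Iso array, and the other 8 lay within 0.06 of their Control values. No member differed at least 1.5-fold, while 1.88% of the 12415 genes above background did. Of the 10 members 4 were listed higher, 1 lower and 5 at the same value, against 17.9% higher, 21.0% lower and 61.1% identical among all 23740 named genes. The 1 lower was Thbs1, which with Tnc lay below background on every array, so that 8 of the 10 passed the filter on level. Of those 8 members, 4 were higher, 0 lower and 4 identical. Among all genes above background, 19.7% were at least 0.01 higher and 27.3% at least 0.01 lower. The members' median difference was 0.00, equal to the median over all named genes.

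Postn encodes periostin, a secreted protein of activated fibroblasts that promotes collagen crosslinking. It was listed at 7.24 on Control, 7.66 on Iso and 7.93 on Iso+Insl6. The 3 levels are therefore ordered Control, Iso, Iso+Insl6. Iso exceeded Control by 0.42 (1.34-fold), and 231 genes, 1.86% of those above background, were at least as far up. Iso+Insl6 exceeded Iso by 0.27 (1.21-fold), and 4.45% of genes were at least that far up.

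Cilp, named for cartilage but also made by cardiac fibroblasts, binds TGF-beta in the matrix. Its values were 3.91 on Control, 4.36 on Iso and 4.53 on Iso+Insl6, in the same order. Since 3.91 lies below background, the listed difference of 0.45 for Iso against Control is not a measured fold. Against the background of 4.16 Cilp was at least 1.15-fold higher on Iso. It passed the filter on level only through the arrays where it was higher. Its paralog Cilp2 stood at 4.02 on all 3 arrays, below background.

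**Figure D1:**
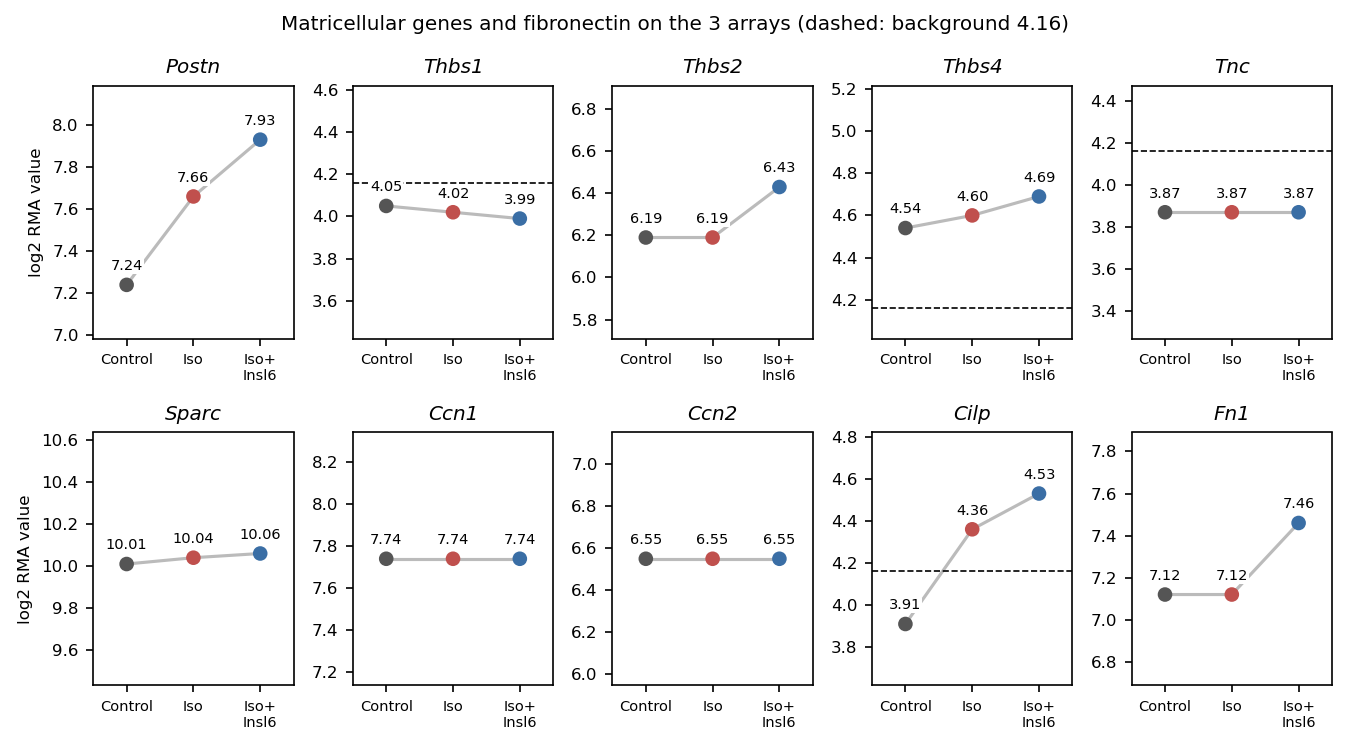
Level of each of the 10 members by array, left to right Control, Iso and Iso+Insl6, as log2 RMA values with 1 array per group; every panel spans 1.2 log2 units and the dashed line is the background of 4.16. Postn runs from 7.24 to 7.93 and Cilp from 3.91 to 4.53, Fn1 and Thbs2 differ only on Iso+Insl6, and Tnc, Ccn1 and Ccn2 are flat.

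Fibronectin and thrombospondin 2 shared another order, with Control and Iso equal and Iso+Insl6 higher. Fn1 was listed at 7.12, 7.12 and 7.46 on Control, Iso and Iso+Insl6. Thbs2, whose product limits matrix metalloproteinase activity and vessel growth and helps collagen fibrils assemble, was listed at 6.19, 6.19 and 6.43. For neither gene did isoproterenol alone go with a listed difference.

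The other thrombospondins varied less. Thbs4, a thrombospondin tied to cardiac overload and to the endoplasmic reticulum stress response of heart muscle, stood at 4.54 on Control, 4.60 on Iso and 4.69 on Iso+Insl6, above background on all arrays but by little. Thbs1, an activator of latent TGF-beta carried in platelets, stood at 4.05, 4.02 and 3.99, below background throughout, so no order can be read from it. Among the relatives, Thbs3 was at 4.93 on every array and Comp, the cartilage member, at 3.65. Only Thbs2 and Thbs4 of these 5 genes were above background with unequal values.

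Tenascin C, an anti-adhesive protein of injury borders, was listed at 3.87 on all 3 arrays, below background. Of the other tenascins, Tnxb stood at 6.82 on Control and 6.93 on both treated arrays, while Tnr (2.56) and Tnn (3.76) lay below background on every array. Osteonectin, which binds collagen and aids its processing, is encoded by Sparc, listed at 10.01 on Control, 10.04 on Iso and 10.06 on Iso+Insl6. These 3 values cannot be put in order: the difference of 0.02 between Iso+Insl6 and Iso turned to -0.02 after quantile normalization and after centring on genes above background. Within its family Sparcl1 was at 10.15 on all arrays, and Smoc2 was at 6.53 on Control and 6.72 on both treated arrays.

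The CCN proteins are growth factor binding, integrin binding products of genes that respond quickly to stretch, YAP and TGF-beta. Ccn1 was listed at 7.74 and Ccn2 at 6.55 on every array, both well above background. Ccn5, a family member that lacks the last domain and opposes Ccn2 in fibrosis models, was the CCN gene with the widest range, at 5.75 on Control, 6.11 on Iso and 6.17 on Iso+Insl6. Ccn3 stood at 4.89 on all arrays, and Ccn4 and Ccn6 were below background throughout. Of the 6 CCN genes, then, 3 were above background with no listed difference.

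In the design's other comparison, Iso+Insl6 was set against Iso, to see what INSL6 adds in the isoproterenol-treated ventricle. No member stood lower on Iso+Insl6 by more than the 0.03 of Thbs1, which is below background. Postn, Cilp and Thbs4, listed higher on Iso than on Control, were listed higher again on Iso+Insl6. The 5 members with identical values on Control and Iso had no difference to reverse, and the sign for Sparc turned with scaling. Fn1 had the largest difference, 0.34 (1.27-fold), followed by Postn at 0.27, Thbs2 at 0.24 (1.18-fold) and Cilp at 0.17 (1.13-fold). No member reached 1.5-fold, against 1.99% of 12457 genes above background. The 10 members comprised 6 listed higher, 1 lower and 3 identical, and of all named genes 20.5% were higher, 19.0% lower and 60.5% identical. Above background, 6 members were higher, 0 lower and 2 identical. Among all genes above background, 27.9% were at least 0.01 higher and 18% at least 0.01 lower. The median of the 10 was 0.055 beside 0.00 over all named genes. After centring each array on the genes above background it was 0.015, beside -0.04 over all genes above background.

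Plasma fibronectin is a liver product, so the liver genes are given beside the Fn1 value. At least as far up as Fn1 were 393 genes, 3.15% of those above background. The summed linear level of the 15 liver markers was 1374 on Control, 1291 on Iso and 6123 on Iso+Insl6, a ratio of 4.74 between the last pair, and all 15 were higher there. The fibrinogen chain Fgb stood at 6.69, 5.98 and 8.11 and the carrier Ttr at 6.41, 6.41 and 8.32. Like Fn1, these markers were highest on Iso+Insl6, with far larger differences. Genes outside the liver list also had equal values on Control and Iso and a higher one on Iso+Insl6, among them Thbs2, Col1a1 and Tagln. The part of the liver genes in the Fn1 value was not tested. The probe set does not separate plasma from tissue fibronectin here.

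**Figure D2:**
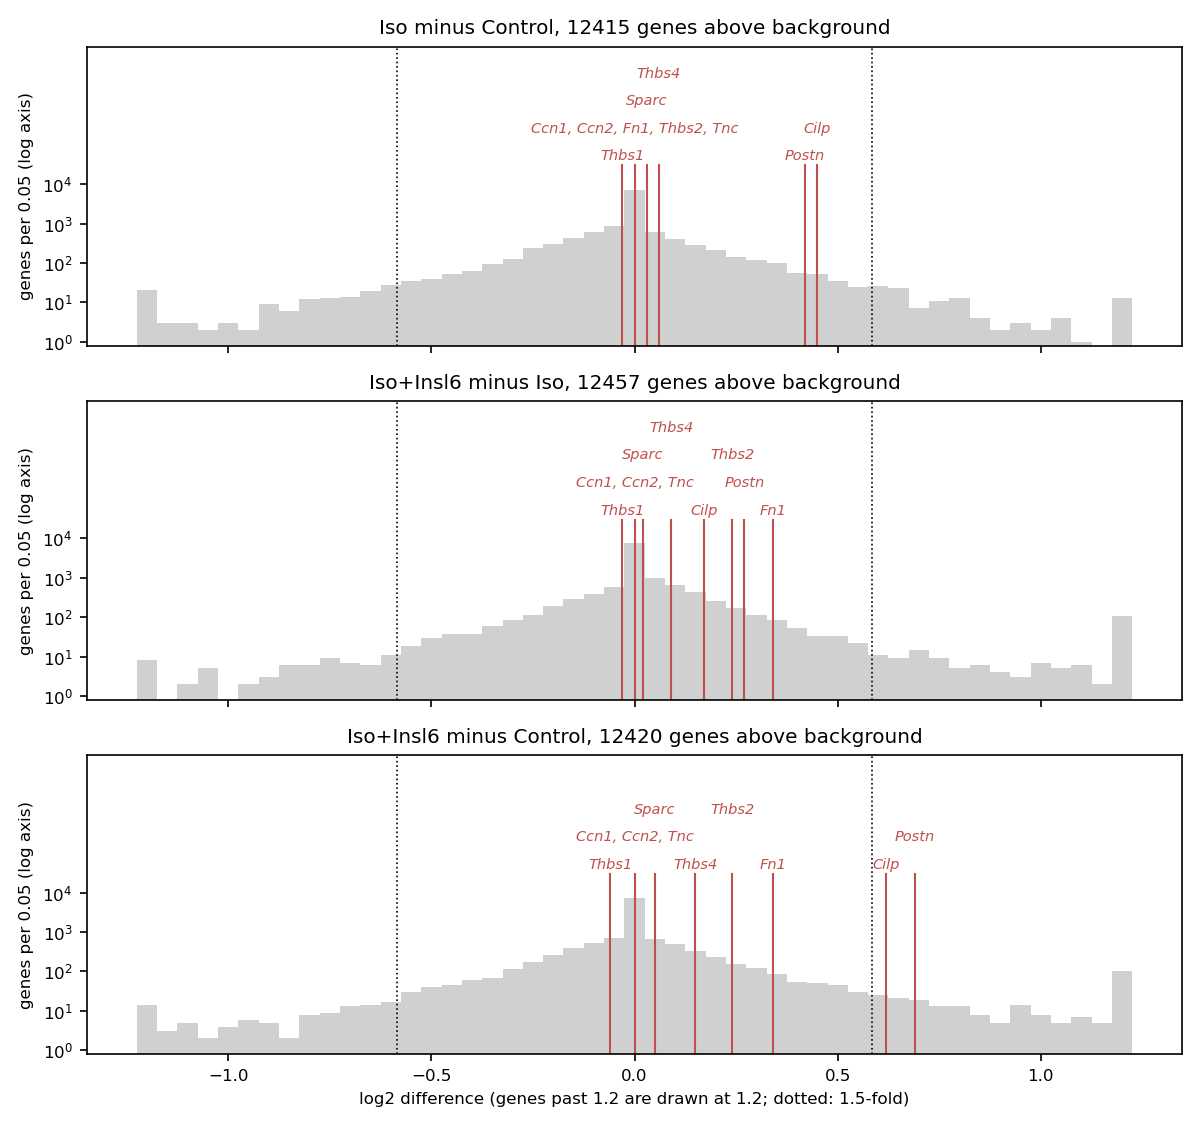
Differences of the members (red lines) on the distribution of all genes above background (grey bars, genes per 0.05 log2 on a log axis, values past 1.2 drawn at 1.2), with panels from top to bottom for Iso less Control, Iso+Insl6 less Iso, and Iso+Insl6 less Control; dotted lines mark 1.5-fold. Only Postn (0.69) and Cilp (0.62) cross a dotted line, and only between Iso+Insl6 and Control.

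Between Iso+Insl6 and Control, the pair that the design text does not name, 2 of the 10 members were listed at least 1.5-fold higher, Postn by 0.69 (1.61-fold) and Cilp by 0.62. The same held for 1.96% of 12420 genes above background. The Cilp count rests on a Control value below background: against 4.16 it was at least 1.29-fold higher, which leaves Postn as the 1 member past the threshold. At least as far up as Postn were 196 genes, 1.58%. Fn1 differed by 0.34, Thbs2 by 0.24, Thbs4 by 0.15 and Sparc by 0.05. In all, 6 members were listed higher, 1 lower and 3 identical, against 17.9%, 20.9% and 61.2% of all named genes, with a median over the 10 of 0.10 beside 0.00. Above background, 6 members were higher, 0 lower and 2 identical. Among all genes above background, 23.1% were at least 0.01 higher and 23.3% at least 0.01 lower. This pair shares an array with each of the other comparisons and adds no independent measurement.

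Other matricellular genes were a list of 24 relatives and functional kin. Of the 24, 15 were above background, and 0 reached 1.5-fold in any comparison. Between Iso and Control 7 were listed higher, 3 lower and 14 identical, and those above background were led by Ccn5 (0.36) and the secreted glycoprotein Fstl1 (0.29, from 7.31 to 7.60), with Fbln1 and Fgl2 each at -0.09. Between Iso+Insl6 and Iso 6 were higher, 3 lower and 15 identical, and those above background were led by Fbln1 and the matrix protein Ecm1 at 0.18 each. Spock3, a testican, had the list's widest range at 2.61, 2.95 and 2.43, below background throughout. Spp1, the gene of osteopontin and another marker of injured heart, was at 3.69, 3.57 and 3.65, below background on every array. Both medians were 0.00, and the shares over all named genes are those given above for each comparison.

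Receptors of these proteins had medians of 0.00 in both comparisons and no gene of 22 at 1.5-fold. Between Iso and Control 3 were higher and 7 lower, each of them above background. Of all genes above background 19.7% were at least 0.01 higher there and 27.3% at least 0.01 lower. The syndecan Sdc2, a heparan sulfate coreceptor for fibronectin, went from 6.99 to 7.48 and stood at 7.31 on Iso+Insl6. Its relative Sdc4 went the other way, at 6.67, 6.31 and 6.47, and the integrin subunit Itgb6 stood at 7.61, 7.17 and 7.15. The main fibronectin receptor subunits Itga5 (6.92, 6.92 and 6.94) and Itgb1 (9.40, 9.39 and 9.37) and the thrombospondin receptors Cd36 (11.12, 11.08 and 11.07) and Cd47 (7.96 on all arrays) barely differed.

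Genes of fibronectin's matrix partners, 16 all of them above background on every array, had no gene at 1.5-fold. Between Iso and Control 7 were higher and 3 lower, and between Iso+Insl6 and Iso 8 were higher and 1 lower, with medians of 0.00 and 0.02. Among all genes above background, 19.7% were at least 0.01 higher and 27.3% at least 0.01 lower in the first comparison. In the second these shares were 27.9% and 18%. The fibrillar collagen Col1a2 stood at 6.90, 7.19 and 7.41 and Col3a1 at 6.90, 7.30 and 7.40. Col1a1 followed the Fn1 order, with 7.07, 7.07 and 7.23. Fibrillin 1 (Fbn1), the microfibril protein, had the reverse order to Col1a2 and Postn, at 7.72, 7.54 and 7.24.

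Genes that respond to the same inputs as the CCN genes were described as further lists. Of 18 SRF, YAP and mechanical response targets, the heart muscle gene Ankrd1 alone was at least 1.5-fold higher on Iso (0.80). In all 3 were higher, 4 lower and 11 identical on Iso against Control. On Iso+Insl6 against Iso 7 were higher, 5 lower and 6 identical. The shares over all genes above background are given below with the immediate early genes. Amotl2 (6.30), Lats2 (6.13) and Axl (7.65) were flat across all arrays, as Ccn1 and Ccn2 were. Other genes of the list were not, among them Ankrd1 (11.41, 12.21 and 12.10) and Ptpn14 (7.11, 6.98 and 7.13). Between Iso+Insl6 and Iso, Myl9 (0.32) and Cnn1 (0.31) were furthest up and Acta2 (-0.20) was furthest down. Cnn1 (4.32, 4.32 and 4.63) and Tagln (5.57, 5.57 and 5.85) had the Fn1 order. Actb was listed at 9.71, 9.14 and 9.11. Of 16 TGF-beta induced genes none reached 1.5-fold in any comparison: Loxl2, a collagen crosslinking enzyme, was at 4.92, 5.42 and 5.39, while Lox was at 4.36, 4.08 and 4.08 and Cthrc1 at 4.24, 4.24 and 3.96. The immediate early genes, a class that responds to stimuli within minutes as Ccn1 does, numbered 20, with 4 below background on every array. On Iso against Control 3 were higher and 11 lower, or 3 and 9 above background. Of all genes above background 19.7% were at least 0.01 higher there and 27.3% at least 0.01 lower. On Iso+Insl6 against Iso 11 were higher and 1 lower, or 10 and 1 above background. Of all genes above background 27.9% were at least 0.01 higher there and 18% at least 0.01 lower. The shares over all named genes are those given above for each comparison. None of these reached 1.5-fold, the furthest being Dusp1 at -0.57 in the first comparison and Zfp36 at 0.39 in the second.

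**Figure D3:**
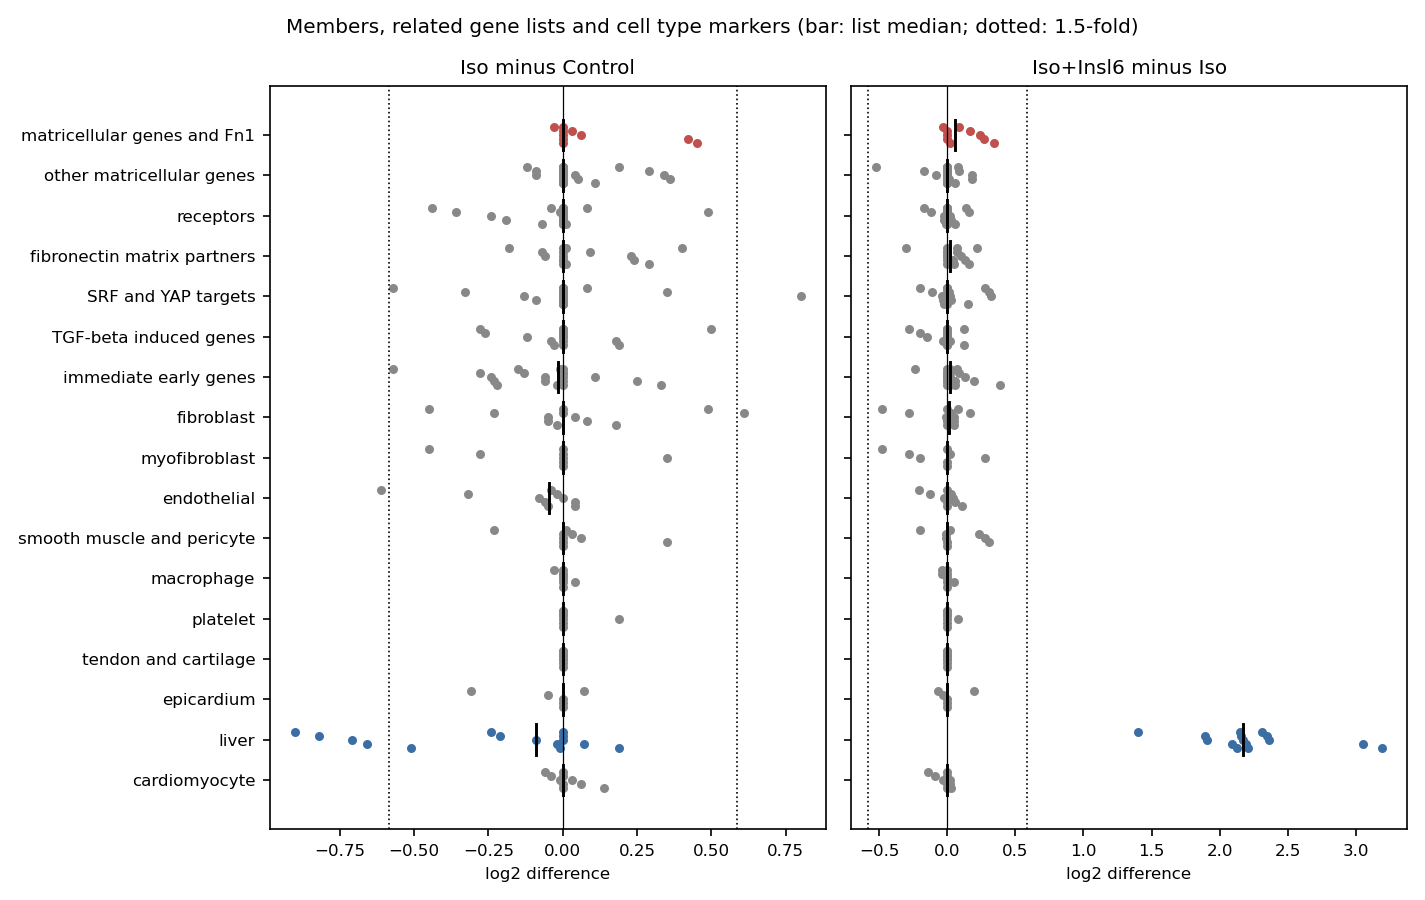
Log2 difference of every measured gene in the members (red), 6 related gene lists and 10 marker lists (liver in blue), for Iso minus Control and Iso+Insl6 minus Iso, with list medians as black bars and 1.5-fold as dotted lines; the panels have different x scales. Only the liver list has all its genes past a dotted line, with a median of 2.17 between Iso+Insl6 and Iso, where the members' median is 0.055.

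Markers of the cells that make these proteins were set beside the members. The 12 fibroblast markers were all above background, with a summed linear level of 4009 on Control, 4129 on Iso and 4249 on Iso+Insl6. Pdgfra (7.39, 7.34 and 7.39), Tcf21 (5.72, 5.67 and 5.67) and Pdgfrb (7.73 on all arrays) hardly differed, while the collagen-binding proteoglycan Lum stood at 6.96, 7.45 and 7.62 (1.58-fold higher on Iso+Insl6 than on Control) and Pi16 at 6.80, 7.41 and 7.13 (1.53-fold higher on Iso than on Control). Meox1, a transcription factor of activated fibroblasts, had the reverse order to Postn, at 5.86, 5.41 and 4.93, and was 1.91-fold lower on Iso+Insl6 than on Control. Of 8 myofibroblast markers 1 was higher and 2 lower on Iso, with Acta2 at 9.25, 9.60 and 9.40, Fap at 5.29, 5.29 and 5.31, and Comp below background throughout. Their summed level was 824, 972 and 867. That sum is carried mostly by Acta2, the 1 marker higher on Iso and also on the smooth muscle list. Meox1 and Lox were the 2 lower on Iso. Of all genes above background 19.7% were at least 0.01 higher on Iso and 27.3% at least 0.01 lower. The part of fibroblast number or state in the Postn and Cilp values was not tested.

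Markers of further cell types that make or carry these proteins gave the following values. Endothelial markers, of cells rich in Sparc, summed to 4113, 3733 and 3680, with 7 of 10 lower on Iso, Eng at 9.04, 8.72 and 8.83, and the VEGF receptor Kdr at 9.51, 8.90 and 8.69 the only one past 1.5-fold. Apart from Kdr and Eng, the markers lower on Iso differed by 0.02 to 0.08, and Kdr made up most of the fall in the sum on Iso. Of all genes above background 27.3% were at least 0.01 lower on Iso. Smooth muscle and pericyte markers summed to 6002, 6005 and 5952, carried mostly by Rgs5 (10.97 on all arrays), Des and Abcc9. On Iso+Insl6 against Iso 4 of these 9 were higher and 3 lower, with Cnn1 at 0.31, Tagln at 0.28, Myh11 at 0.23 and Acta2 at -0.20. Of all genes above background 27.9% were at least 0.01 higher there and 18% at least 0.01 lower. Macrophage markers, of which 9 of 10 were matched, summed to 672, 670 and 666. Platelet markers, relevant to Thbs1, summed to 138, 139 and 139 with 5 of 8 below background on every array and Pf4 at 4.79 on each. Tendon and cartilage markers, relevant to Cilp and Thbs4, were identical on all arrays at 112, with 6 of 8 below background, and epicardial markers summed to 104, 98 and 101 with 4 of 6 below background.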

How the data were processed

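Gene expression was measured on 3 arrays of pooled RNA, 1 per group. The values deposited by the authors are log2 expression, 1 value for each probe set. The submitters' processing notes name RMA and, as software, affy 1.36.1; settings, the array's name and the genome build are not given in the sources used here. The table held 25206 probe sets with values from 0.44 to 12.45. Symbols came by Entrez gene number from RefSeq's table (GRCm38.p6), which named 23740, and the platform annotation named all 10 members too.

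Differences of log2 values were counted by size, without a test, and folds against values below background were given as bounds. The members and all lists were chosen with earlier results of these data known. Of 6 related lists and 10 marker lists, the symbols Lyz2 and Serpina1a were not matched. Genes were named as members, as list genes furthest from 0 or past 1.5-fold, or as defining markers. Those most like a member were the 3 nearest by the distance of both design differences, for members spanning at least 0.3. A few family relatives and collagens outside this rule were chosen after their values were seen.

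The settings varied were the threshold (2-fold), the level filter (none), cyclic loess and quantile normalization (limma 3.58.1, R 4.3.3), centring on genes above background and, chosen after seeing the data, setting values below background to it. Counting was tested on simulated data. The number of arrays limits the precision.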

Additional observations from a re-analysis of the deposited data

How the results depend on the processing

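No member reached 1.5-fold in either comparison of the design under any alternative tried. Between Iso+Insl6 and Control the count of 2 members became 0 at a 2-fold threshold and 1 (Postn) with values below background set to background, where Cilp fell from 0.62 to 0.37, and from 0.45 to 0.20 between Iso and Control. Otherwise no member's difference moved by more than 0.04 under any scaling, and the sign turned only for Sparc between Iso+Insl6 and Iso. Members listed at identical values lie at differences of up to that size after scaling. Over all genes, the counts of 233, 248 and 342 (Iso against Control, Iso+Insl6 against Iso, Iso+Insl6 against Control) became 51, 137 and 152 at 2-fold, and 426, 503 and 584 with no filter on level. No paired analysis was possible because each group has 1 array and the labels give no replicate numbers. Without replicates, nothing here measures the spread between mice, and a single array could set any of these values.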

Other observations

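Genes with the pattern most like a member's over the 3 arrays were sought by the distance between their pairs of design differences, among genes above background. Nearest to Postn were the solute carrier Slc35e3 (0.43 for Iso minus Control and 0.27 for Iso+Insl6 minus Iso), Gdap10 (0.41 and 0.26) and the glucocorticoid-induced gene Tsc22d3 (0.45 and 0.22), and 11 genes lay within 0.1 of it. No genes are given for Cilp, whose Control value lies below background. Fn1 had 83 genes within 0.1, the nearest being the noncoding RNA Meg3 (0.00 and 0.34), the zinc finger gene Zscan29 (0.00 and 0.34) and the kinase anchor gene Akap7 (0.00 and 0.35). With 3 arrays a pattern has only 2 differences, so a match of this kind is easily met.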
